A study of Mus musculus with 2 samples.

Results

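The genes described here are 41 genes of fatty acid uptake and oxidation, chosen by symbol for their known roles, out of 55536 annotated genes in the gene tables. The choice was made with earlier results of these data known. The genes were measured by total RNA-seq in gastrocnemius, the large muscle of the calf, of 2 male B6CASTF1/J mice aged 36 days. This strain is the first-generation cross of C57BL/6 and CAST mice, so every nucleus holds a genome of each parent, and the tables do not separate the alleles. The labels name no treatment, mutation or transgene, so there is a single group of 2 animals. The labels give each animal its own biosample and mouse number, and number them replicate 1 and replicate 2, but list 1 donor entry for both. Their spread may therefore be partly technical. The design allows no p-value, and differences between the animals are given as the log2 ratio of replicate 1 over replicate 2.

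Muscle takes long-chain fatty acids from the blood, where lipoprotein lipase frees them from triglycerides, and carries them through the membrane and cytosol on transporters and binding proteins. Acyl-CoA synthetases trap each fatty acid as a CoA ester, the carnitine shuttle moves it into the mitochondrion, and the β-oxidation spiral removes 2-carbon units as acetyl-CoA. Electrons from the first dehydrogenation pass through the electron transfer flavoprotein to the respiratory chain. Malonyl-CoA, made by acetyl-CoA carboxylase, blocks the shuttle's first enzyme and so sets how much fat enters.

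Replicate 1 had 36952277 expected counts (estimated reads per gene) and replicate 2 had 38754338. The 41 genes took 0.341% of these counts in replicate 1 and 0.425% in replicate 2. Levels are in TPM, a relative abundance that is scaled by transcript length and so can be compared between genes. The muscle fibre genes Acta1, Ckm, Mylpf, Myh4 and Tnnt3 summed to 83745 TPM in replicate 1, with 88527 TPM in replicate 2. Of 5 liver genes, Alb, Apoa1 and Fabp1 were listed at 0 and the list summed to 3.43 and 7.37 TPM. Of 5 heart genes, Nppa, Nppb and Myl7 were listed at 0 and the list summed to 10.4 and 18.6 TPM.

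The genes were abundant as a group. Of the 41, 40 reached 1 TPM in both animals, as 10028 of all 22015 nuclear protein-coding genes did. By mean TPM, 20 members stood among the 1000 most abundant of those 22015 genes, 11 of them among the first 500. The members' median level was 39.83 TPM, against 6.985 TPM over the 10028 nuclear protein-coding genes at 1 TPM or more in both animals. By mean level, 17 lay at 50 TPM or more, 15 between 10 and 50 TPM and 9 under 10 TPM. Together they summed to 2009.98 TPM in replicate 1 and 2662.66 TPM in replicate 2. The lowest was Cpt1c, with 0.55 TPM in replicate 1 and 0.50 TPM in replicate 2. It was the only member with a mean expected count under 50 and was left out of counts and medians of ratios, so these cover 40 members.

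**Figure D1:**
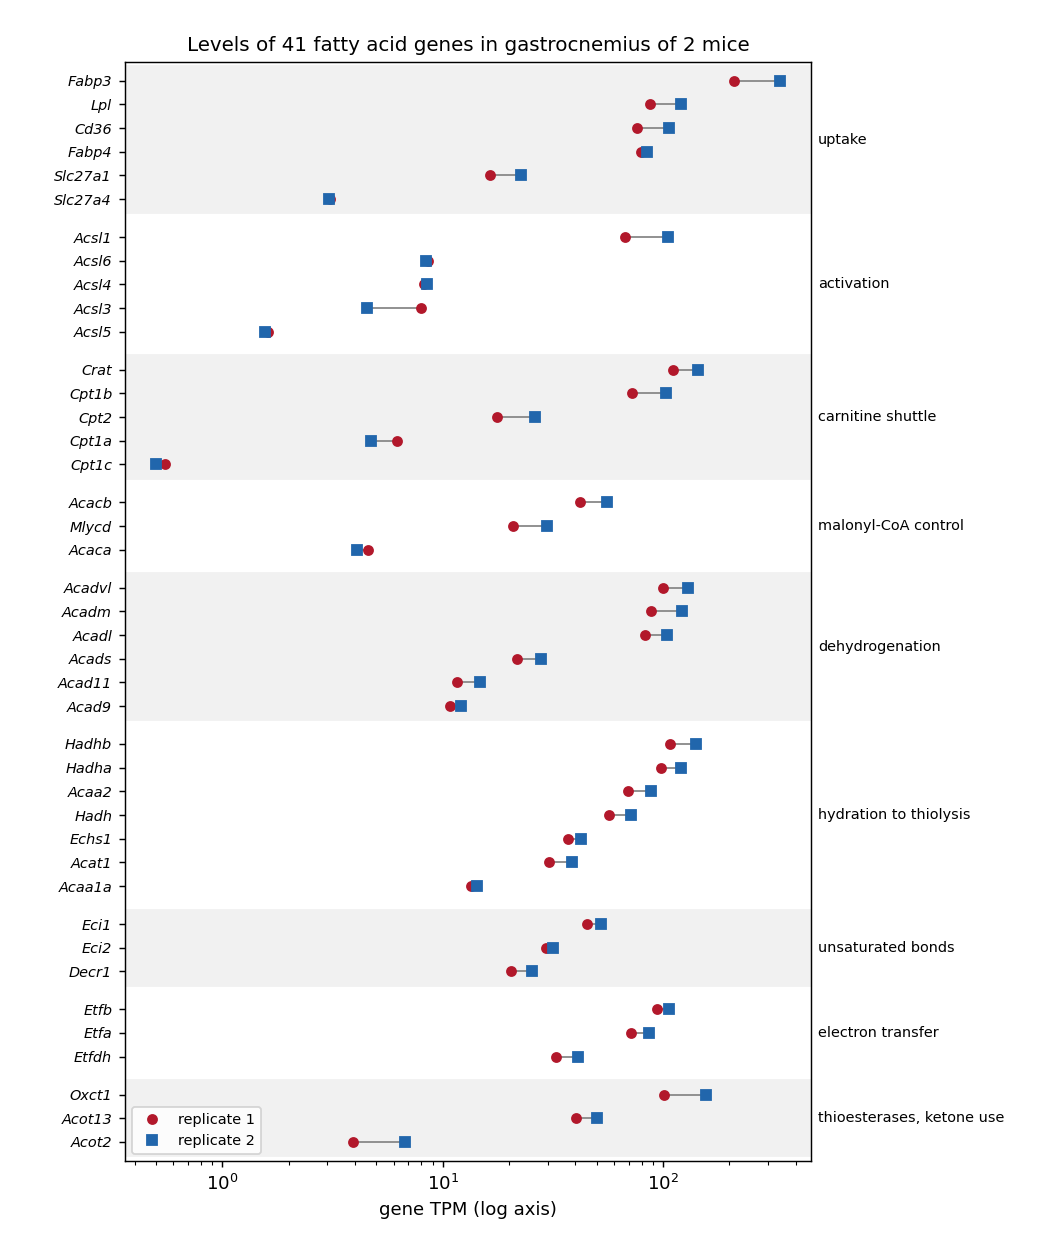
Gene TPM on a log axis for the 41 genes, ordered by step, with replicate 1 as circles and replicate 2 as squares, joined by a line. Fabp3 stands highest and Cpt1c lowest in both animals, and in the steps from dehydrogenation onward every circle lies left of its square.

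The uptake genes summed to 473.15 TPM in replicate 1 and 677.97 TPM in replicate 2 (mean 576 ± 145, SD, n = 2), the largest sum of the 9 steps. Fabp3 (chromosome 4, 130308595-130315463, mm10), the fatty acid binding protein of heart and muscle cytosol, had 210.4 TPM in replicate 1 and 340.16 TPM in replicate 2. It was the highest member in both animals and ranked 144th among nuclear protein-coding genes. Its log2 ratio was -0.69, and the deposited credibility intervals, which cover counting and read assignment only, ran from 200 to 212 TPM in replicate 1 and from 326 to 340 TPM in replicate 2 and so did not meet. A processed pseudogene, Fabp3-ps1, matches 402 of its bases at 99.3% identity and was listed at 3.26 and 2.66 TPM, far under Fabp3 itself.

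Lpl, lipoprotein lipase, had 87.45 TPM in replicate 1 and 120.57 TPM in replicate 2. Cd36, the membrane receptor and transporter for long-chain fatty acids, had 76.55 and 107.09 TPM. Both were lower in replicate 1, with log2 ratios of -0.46 and -0.48 and intervals that did not meet. The transporter and synthetase Slc27a1 (FATP1) had a ratio like that of Lpl, -0.46, at a lower level, 16.4 TPM in replicate 1 and 22.66 TPM in replicate 2. Its relative Slc27a4 (FATP4) had 3.07 and 3.04 TPM, so Slc27a1 carried 84.2% and 88.2% of the TPM of this pair.

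Fabp4 is known as the binding protein of adipocytes and of capillary endothelium. It had 79.28 TPM in replicate 1 and 84.45 TPM in replicate 2. The log2 ratio was -0.09 with overlapping intervals. Fabp3 was therefore 2.65 times as abundant as Fabp4 in replicate 1 and 4.03 times in replicate 2. Of 10 adipocyte markers, 5 reached 1 TPM in both animals and Ucp1 was listed at 0. The list summed to 30.4 TPM in replicate 1 and 53.8 TPM in replicate 2, with Adipoq at 2.99 and 5.29 TPM and Cfd at 19.63 and 34.84 TPM. All 10 endothelial markers were detected, summing to 96.0 and 105 TPM. The part of either cell type in the Fabp4, Lpl and Cd36 levels was not tested, and in whole tissue fewer cells of a type cannot be told apart from less RNA per cell.

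The long-chain acyl-CoA synthetases were led by 1 gene. Acsl1 (chromosome 8, 46471037-46536051), the main synthetase of muscle, heart and fat, had 67.65 TPM in replicate 1 and 105.17 TPM in replicate 2. It carried 72.0% and 82.1% of the family's TPM. The log2 ratio of Acsl1 was -0.64. A separate deposited quantification, the second transcript table, gave -0.33. In the first transcript table the leading form Acsl1-201 had 52.98 TPM in replicate 1 and 71.17 TPM in replicate 2. The 368-base form Acsl1-205 had 8.65 and 27.75 TPM there but was listed at 0 in both animals in the second. Acsl6, known for its action on docosahexaenoic acid in brain, had 8.57 and 8.37 TPM. Acsl4, which prefers arachidonic acid, had 8.2 and 8.47 TPM, and Acsl5 had 1.62 and 1.56 TPM. These 3 were close to even between the animals in the gene table, with ratios of 0.03, -0.05 and 0.05. Acsl5 stood at 0.62 in the second table, where the signs of Acsl4 and Acsl6 turned.

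Acsl3 (chromosome 1, 78657825-78707743), which acts at the endoplasmic reticulum and lipid droplets, had the highest ratio of all members. It had 7.94 TPM in replicate 1 and 4.54 TPM in replicate 2. The log2 ratio was 0.79 with intervals apart, and 1.23 in the second table. At its 5′ end it overlaps Utp14b on the same strand, with 207 bases identical, and Utp14b itself had 0.89 and 0.55 TPM.

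Acsl1 and Acsl6 each hold a pair of 78-base coding exons of which the listed transcripts use at most 1, and in the human genes such paired exons are known to encode the stretch called the fatty acid gate. Their sequences are printed so that the exons of each pair can be compared, and are of the reference, not read from these animals. They are written 5′ to 3′ from the GENCODE M21 transcripts (mm10, plus strand), and capitals mark the bases that differ within a gene's own pair.
Acsl1 upstream exon: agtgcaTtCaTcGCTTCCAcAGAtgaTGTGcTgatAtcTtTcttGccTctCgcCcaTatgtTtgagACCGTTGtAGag
Acsl1 downstream exon: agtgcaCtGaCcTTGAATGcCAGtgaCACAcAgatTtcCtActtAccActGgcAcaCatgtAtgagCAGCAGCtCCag
Acsl6 upstream exon: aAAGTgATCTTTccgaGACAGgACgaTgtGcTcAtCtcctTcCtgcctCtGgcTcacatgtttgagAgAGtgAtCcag
Acsl6 downstream exon: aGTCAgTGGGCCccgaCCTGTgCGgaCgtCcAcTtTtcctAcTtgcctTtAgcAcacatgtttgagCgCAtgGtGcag
The Acsl1 exons lie at chr8:46521268-46521345 and chr8:46521410-46521487, and the Acsl6 exons at chr11:54336936-54337013 and chr11:54337071-54337148. Within each gene the pair is far from alike, with 42 of 78 bases the same in Acsl1 and 46 of 78 in Acsl6. Across the genes the upstream exons shared 49 bases and the downstream exons 46.

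Among transcripts that hold either exon, those with the upstream exon carried most of the TPM. These shares are of TPM assigned to whole transcripts, not counts of reads over the exons. The downstream exon of Acsl1 is in only 1 listed form, Acsl1-202. Of the Acsl1 TPM carried by transcripts with either exon, the upstream exon took 100% in each animal in the first transcript table, and 95.3% in replicate 1 and 98.0% in replicate 2 in the second. In Acsl6 it took 86.0% in replicate 1 and 89.9% in replicate 2 in the first table. The second table put its Acsl6 share at 95.7% and 68.6%, so the animals differed there by more than in the first. The Acsl6 shares rest on few reads and on part of the gene. Transcripts with either exon carried 4.77 TPM in replicate 1 and 5.47 TPM in replicate 2, which is 55.7% and 65.3% of the gene in the first table and 39.8% and 52.1% in the second. The coding form Acsl6-201, which holds neither exon, carried 17.4% and 14.7% in the first table and led the second at 43.2% and 27.9%. An antisense gene, Gm12224, lies opposite Acsl6 and was listed at 41.55 and 50.01 TPM.

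The carnitine shuttle summed to 208.11 TPM in replicate 1 and 279.25 TPM in replicate 2 (mean 244 ± 50.3, SD, n = 2). Cpt1b (chromosome 15, 89416405-89425863), the muscle form of the malonyl-CoA-sensitive outer-membrane enzyme, had 72.57 TPM in replicate 1 and 103.46 TPM in replicate 2. It made up 91.5% and 95.2% of the TPM of the 3 Cpt1 genes. Cpt1a, the liver form, had 6.2 TPM in replicate 1 and 4.75 TPM in replicate 2, the opposite order, with a log2 ratio of 0.38 and overlapping intervals. Cpt1b was 11.7 times as abundant as Cpt1a in replicate 1 and 21.8 times in replicate 2.

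Cpt2, which turns acylcarnitines back to acyl-CoA in the matrix, had 17.62 TPM in replicate 1 and 26.16 TPM in replicate 2. Its ratio of -0.57 lay close to that of Cpt1b at -0.51, and Cpt1b stood 4.12 and 3.95 times above it. Crat, carnitine acetyltransferase, which exchanges acetyl groups between CoA and carnitine, was the most abundant gene of the step at 111.17 TPM in replicate 1 and 144.38 TPM in replicate 2. The locus Gm44502 shares 1841 identical bases with Cpt1b. It was listed at 0.45 and 0.59 TPM in the gene table but at 10.9 and 11.9 TPM in the second table. The division of reads between the overlapping genes depends on the quantification.

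Among the genes that set malonyl-CoA, Acacb was far more abundant than Acaca. Acacb, the acetyl-CoA carboxylase of the mitochondrial surface, had 41.85 TPM in replicate 1 and 55.79 TPM in replicate 2. Acaca, the cytosolic enzyme that feeds fatty acid synthesis, had 4.58 and 4.1 TPM, so Acacb carried 90.1% and 93.2% of the pair. Mlycd, malonyl-CoA decarboxylase, which removes malonyl-CoA, had 20.96 TPM in replicate 1 and 29.78 TPM in replicate 2. The ratio of Acacb to Mlycd was almost the same in the animals, 2.00 in replicate 1 and 1.87 in replicate 2, although each gene was lower in replicate 1 (-0.41 and -0.50). Acaca has a near-identical processed pseudogene, Gm5182, at 0.43 and 0.46 TPM.

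The acyl-CoA dehydrogenases summed to 315.84 TPM in replicate 1 and 411.82 TPM in replicate 2 (mean 364 ± 67.9, SD, n = 2). The enzymes for very-long, medium and long chains were present at like levels: Acadvl had 100.37 and 129.75 TPM, Acadm 88.1 and 122.35 TPM, and Acadl 83.31 and 104.89 TPM in replicates 1 and 2. Acads, for short chains, was lower at 21.69 and 27.88 TPM. Acad11 had 11.62 and 14.79 TPM. Acad9, best known for its part in assembling respiratory complex I, had 10.75 and 12.16 TPM. The shares of the family were close in the animals, Acadvl taking 31.8% in replicate 1 and 31.5% in replicate 2 and Acads 6.87% and 6.77%. All 6 were lower in replicate 1, from -0.47 for Acadm to -0.18 for Acad9, and Acad9 stood at 0.17 in the second table.

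The later steps of the spiral summed to 412.95 TPM in replicate 1 and 518.34 TPM in replicate 2. Hadha and Hadhb encode the α and β subunits of the mitochondrial trifunctional protein, which carries out the last 3 reactions on long chains. Hadha had 98.11 TPM in replicate 1 and 121.02 TPM in replicate 2. Hadhb had 107.99 and 142.08 TPM. The ratio of Hadha to Hadhb was 0.909 in replicate 1 and 0.852 in replicate 2, but 0.645 and 0.568 in the second table. Reads of Hadhb may be split with the pseudogene Gm13910, which matches 1428 bases at 99.8% identity and was given 13.0 TPM in replicate 1 and 16.7 TPM in replicate 2.

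Hadha (chromosome 5, 30118304-30155162, minus strand) and Hadhb (chromosome 5, 30155248-30184593, plus strand) lie head to head, the closest pair among the 41 genes. Only 85 bases separate their GENCODE ends, and this gap is printed because it lies upstream of both subunits of 1 enzyme. In RefSeq the start sites lie at 30154980 and 30155253, with 272 bases between them, so the gap lies within that stretch. It is given on the plus strand at chr5:30155163-30155247 from RefSeq (GRCm38.p6), and capitals mark its 2 matches to the GC box GGGCGG.
Hadha and Hadhb gap: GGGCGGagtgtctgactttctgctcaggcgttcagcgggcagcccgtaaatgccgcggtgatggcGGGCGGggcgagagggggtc
The gap held no match to the CCAAT box, the TATA box, the ERR element or the NRF1 element, which says only that these letters are not in this window.

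Hadh, the 3-hydroxyacyl-CoA dehydrogenase for shorter chains, had 56.65 TPM in replicate 1 and 71.44 TPM in replicate 2. Echs1, the short-chain enoyl-CoA hydratase, had 37.08 and 42.58 TPM. Of the thiolases, the mitochondrial Acaa2 had 69.12 and 88.28 TPM. Acat1, the acetoacetyl-CoA thiolase, had 30.54 and 38.58 TPM, and the peroxisomal Acaa1a had 13.46 and 14.36 TPM. All 7 genes of these steps were lower in replicate 1 in the gene table and in the second table, and the ratios in the gene table ran from -0.40 for Hadhb to -0.09 for Acaa1a.

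The enzymes that deal with double bonds summed to 95.3 TPM in replicate 1 and 109 TPM in replicate 2, the log2 ratio of sums nearest to 0 among the 9 steps (-0.20). Eci1 and Eci2, isomerases that shift a double bond into the position the spiral can use, had 45.43 and 29.41 TPM in replicate 1 and 52.43 and 31.59 TPM in replicate 2. Decr1, the 2,4-dienoyl-CoA reductase, had 20.47 and 25.44 TPM. Their ratios were -0.21, -0.10 and -0.31, and Eci1 stood at 0.01 in the second table.

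Etfa and Etfb form the electron transfer flavoprotein, and Etfdh passes its electrons to ubiquinone. Etfb had 93.63 TPM in replicate 1 and 107.03 TPM in replicate 2, Etfa 71.86 and 86.47 TPM, and Etfdh 32.71 and 41.3 TPM. The ratio of Etfa to Etfb was 0.767 in replicate 1 and 0.808 in replicate 2. The intervals of all 3 genes lay apart, and all 3 were lower in replicate 1.

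Oxct1 (chromosome 15, 4026383-4155344), the CoA transferase that opens the use of ketone bodies, was an abundant member. It had 100.9 TPM in replicate 1 and 156.19 TPM in replicate 2. The log2 ratio was -0.63, with -0.47 in the second table. Acot13, a thioesterase that releases fatty acids from CoA, had 40.22 and 50.33 TPM. The mitochondrial thioesterase Acot2 (chromosome 12, 83987861-83993873) was far lower at 3.93 TPM in replicate 1 and 6.72 TPM in replicate 2. Its log2 ratio of -0.76 was the lowest of all members. Acot2 shares 1337 bases at 93.8% identity with Acot1, which was listed at 1.16 and 1.56 TPM, so reads may be split between them.

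Set beside the whole transcriptome, most members stood lower in replicate 1. Of the 40 members, 34 (85%) were lower in replicate 1 by any amount, where 50.5% of all 11632 genes with a mean expected count of at least 50 were. The members' median log2 ratio was -0.33, against -0.00 over all genes. The members were chosen with earlier results of these data known, so these contrasts describe this list and test nothing. The intervals of 29 members (72.5%) lay apart with replicate 1 lower, against 9.5% of all genes, and those of 1 member, Acsl3, lay apart with replicate 1 higher, against 9.39%. Intervals are narrower for genes with more reads, and the members were more abundant than most genes. The shares were not matched for level, so this contrast in intervals cannot be told apart from abundance.

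The differences were small in size. Only Fabp3, Acsl1, Oxct1 and Acot2 (10%) were at least 1.5-fold lower in replicate 1, against 3.02% of all genes, and Acsl3 alone (2.5%) was at least 1.5-fold higher, against 7.52%. In either direction the 5 members (12.5%) were near the 10.5% of all genes. In the gene table no member reached 2-fold, which 2.83% of all genes did, or 2.21% with intervals apart as well. In the second table Acsl3 was past 2-fold, with a log2 ratio of 1.23. The lower and upper quartiles of the members' log2 ratios were -0.46 and -0.16, against -0.17 and 0.20 over all genes. The SD over the animals was 16.5% of the mean at the median member, from 0.694% to 38.5%.

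**Figure D2:**
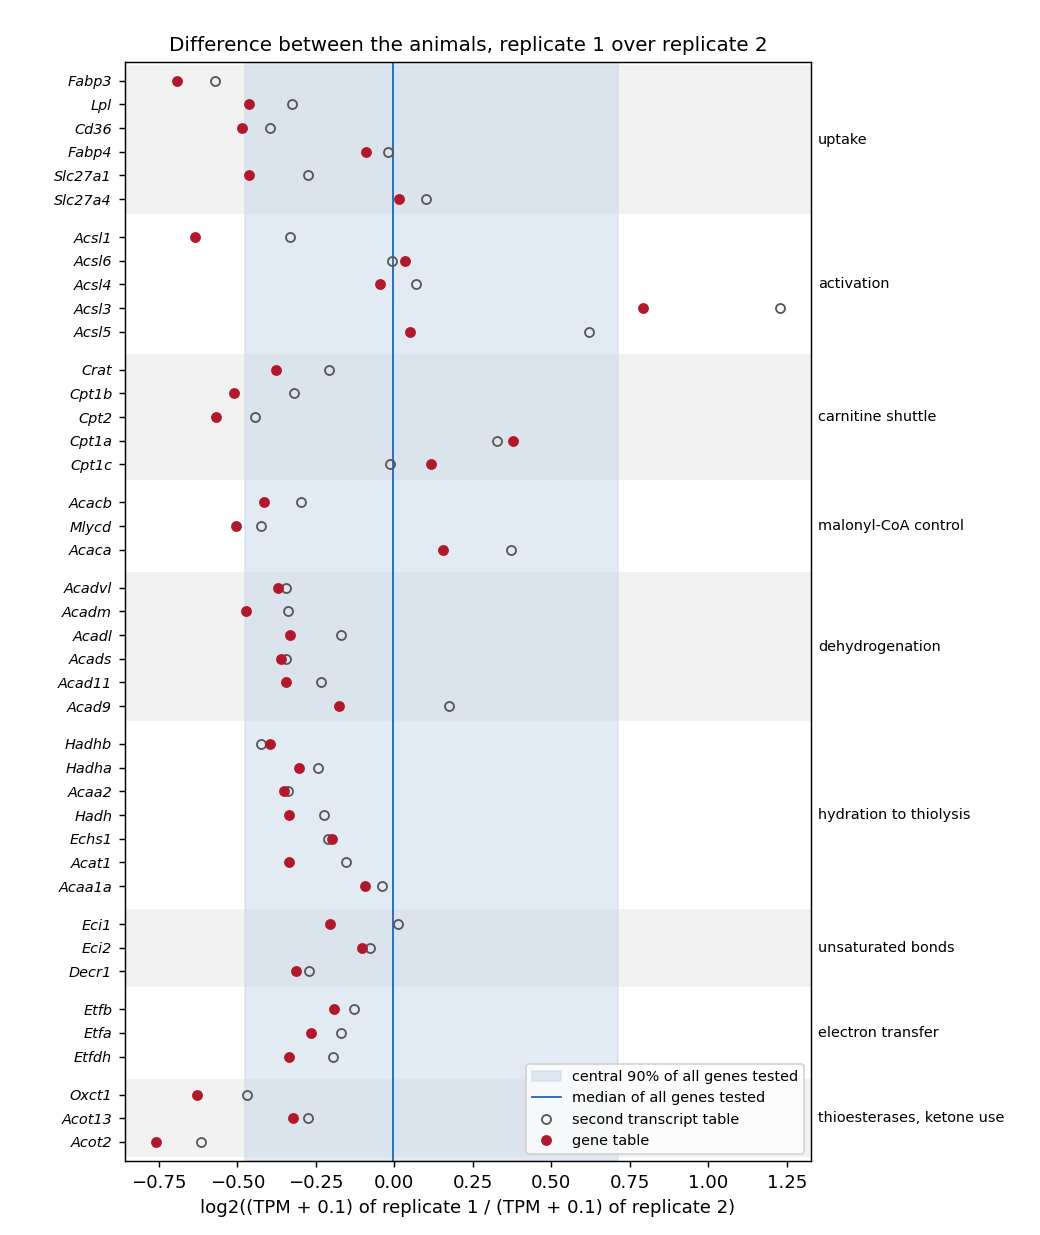
Log2 ratio of replicate 1 over replicate 2 for the 41 genes in the gene table (filled) and in the second transcript table (open), with the median of all 11632 genes as a line and their central 90% as a band. Most filled points lie left of the line near -0.33, and Acsl3 lies farthest right in both tables.

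The second table moved the median of all genes to 0.11, so members are best read against it. There 35 of 40 members lay below the median of all genes, as 34 did in the gene table, and the members' median lay 0.34 below that of all genes, against 0.33 in the gene table. With the counts scaled by TMM, a normalization from edgeR, 36 lay below it and the members' median was 0.32 lower. By sign alone, 32 members were lower in replicate 1 in the second table, where 33.3% of all genes were. Of the 4 genes past 1.5-fold on the lower side, only Acot2 stayed past it there, and Acsl5 joined Acsl3 on the higher side. That is 1 of 40 members lower (2.5%), against 2.32% of all genes, and 2 higher (5%), against 11.3% of all genes, so the share on the lower side was at the background there. With rescaled TPM and with TMM, 2 members were past it on the lower side (5%), against 2.44% and 2.39% of all genes.

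Genes of other cell types and fibre types differed between the animals as well, and their part in the members' ratios was not tested. All 10 oxidative and slow fibre genes were lower in replicate 1 in the gene table. Myh7, the slow myosin heavy chain, had 38.34 TPM in replicate 1 and 78.47 TPM in replicate 2. The slow troponin Tnnc1 had 23.68 and 48.92 TPM. Myh2, another myosin heavy chain of the list, was near even at 499.53 and 519.06 TPM (log2 ratio -0.06). Its ratio was 0.09 in the second table. This list summed to 1783 TPM in replicate 1 and 2291 TPM in replicate 2, with a median log2 ratio of -0.94. The 18 nuclear-encoded respiratory chain and citric acid cycle genes were all lower in replicate 1 in the gene table too, from -0.35 to -0.14 with a median of -0.26. Of these, Cox4i1 stood at 0.03 in the second table. In the other direction, all 6 Schwann cell markers were higher in replicate 1, summing to 469.5 TPM against 107 TPM in replicate 2. The fibroblast list summed to 1737 and 901 TPM, and the macrophage list to 50.2 and 30.7 TPM, with every gene of both lists higher in replicate 1.

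**Figure D3:**
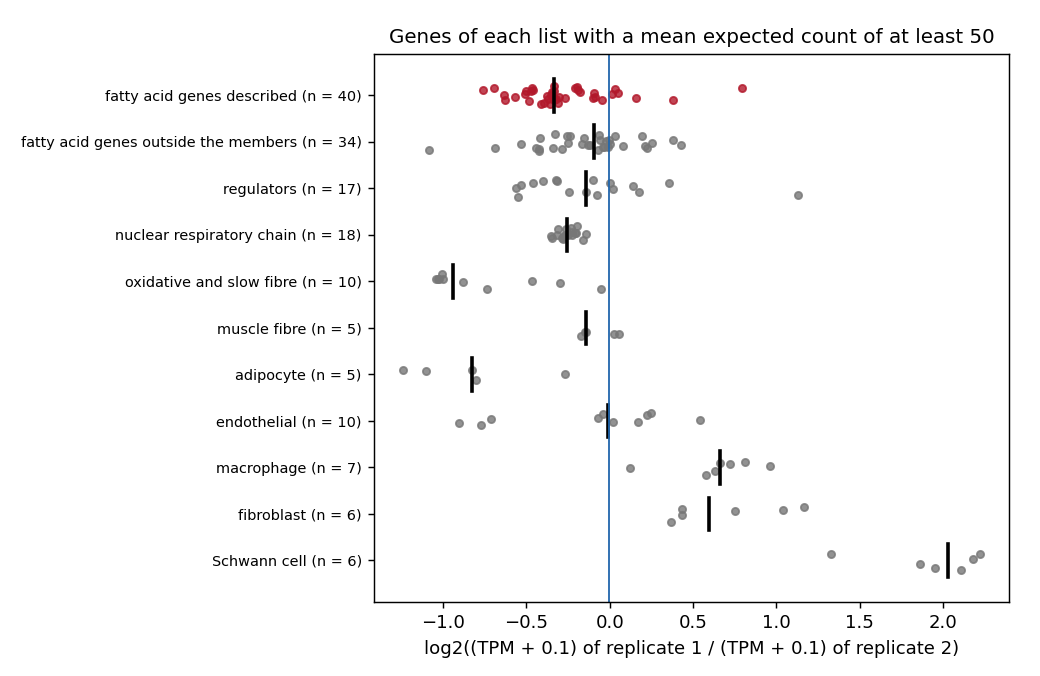
Log2 ratio of replicate 1 over replicate 2 for every gene of each list with a mean expected count of at least 50, with a black bar at the list's median and a blue line at the median of all genes. The fatty acid genes (median -0.33) lie near the respiratory chain genes (-0.26), the medians of the slow fibre and adipocyte genes lie farther left, and the Schwann cell genes lie at the right.

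Other genes of fatty acid handling had a median nearer to 0. In a list of 40 such genes, 34 reached the count of 50. Of these, 25 were lower in replicate 1, and their median log2 ratio was -0.09. In the second table, where the median of all genes was 0.11, it was 0.00652, with the sign turned. No test of this difference from the members was made. The most abundant was Pdk4, the kinase that shuts down pyruvate use in favour of fat, at 590.81 TPM in replicate 1 and 590.17 TPM in replicate 2. Ucp3, the uncoupling protein of muscle mitochondria, had 92.24 and 96.84 TPM. Phyh, the peroxisomal phytanoyl-CoA hydroxylase, had 52.86 and 70.99 TPM. Dbi, the acyl-CoA binding protein, had 56.14 and 57.82 TPM, and Scp2, the peroxisomal sterol carrier and thiolase, had 54.55 and 57.1 TPM.

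The lowest of this list were the transporters known from other organs. Slc27a2, of liver and kidney, was listed at 0 in both animals. Slc27a5, of liver, had 0.01 TPM in replicate 1 and 0 in replicate 2, and Slc27a6 had 0.13 and 0.15 TPM. The genes of the list that were farthest apart were all lower in replicate 1. Bdh1, the ketone body dehydrogenase that acts just before Oxct1, had 9.72 TPM in replicate 1 and 20.73 TPM in replicate 2 (log2 ratio -1.08). Acss1, the mitochondrial acetyl-CoA synthetase, had 2.65 and 4.33 TPM (-0.69), and Nudt7, a peroxisomal CoA hydrolase, had 6.63 and 9.65 TPM (-0.53).

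Among 17 regulators, 12 were lower in replicate 1, with a median of -0.15. Ppargc1a, the coactivator of oxidative genes known as PGC-1α, went the other way from most members: it had 28.62 TPM in replicate 1 and 13.01 TPM in replicate 2. The log2 ratio was 1.13, with 0.98 in the second table. Its relative Ppargc1b had 2.66 and 3.94 TPM (-0.55). The receptor Esrrg had 5.05 and 7.5 TPM (-0.56). Lpin1, at 77.53 and 92.02 TPM, was the most abundant regulator, followed by the AMP kinase subunit Prkaa2 with 41.16 and 51.49 TPM and the corepressor Ncor1 with 46.2 and 45.67 TPM. Prkag3, another AMP kinase subunit, had 41.31 and 36.6 TPM, and Rxra, the partner of the PPAR receptors, had 30.33 and 41.8 TPM. Pparg, the receptor of fat cells, and Esrrb were the lowest, with Pparg at 0.91 and 1.16 TPM and Esrrb at 0.79 and 1.19 TPM.

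These levels were divided among annotated transcript forms, and the division often differed between the transcript tables. The 41 genes had 255 forms in all, a median of 6 and at most 15. In the first transcript table a single form carried at least 80% of the TPM in 21 genes, among them Fabp3, Hadh, Mlycd, Acads, Decr1 and Etfa, and under 80% in the other 20. In the second table the same form kept at least 80% in 14 of the 21. In the other 7 its mean over the animals was 75.5% in Cpt1b, 75.04% in Etfb, 54.6% in Acaa1a, 53.0% in Eci1, 52.5% in Acat1, 47.9% in Acadvl and 45.8% in Acad11. By the mean over the animals, both tables put the same form first in 35 genes. The 6 that differed were Cd36, Acsl6, Crat, Acad9, Hadhb and Eci2.

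**Figure D4:**
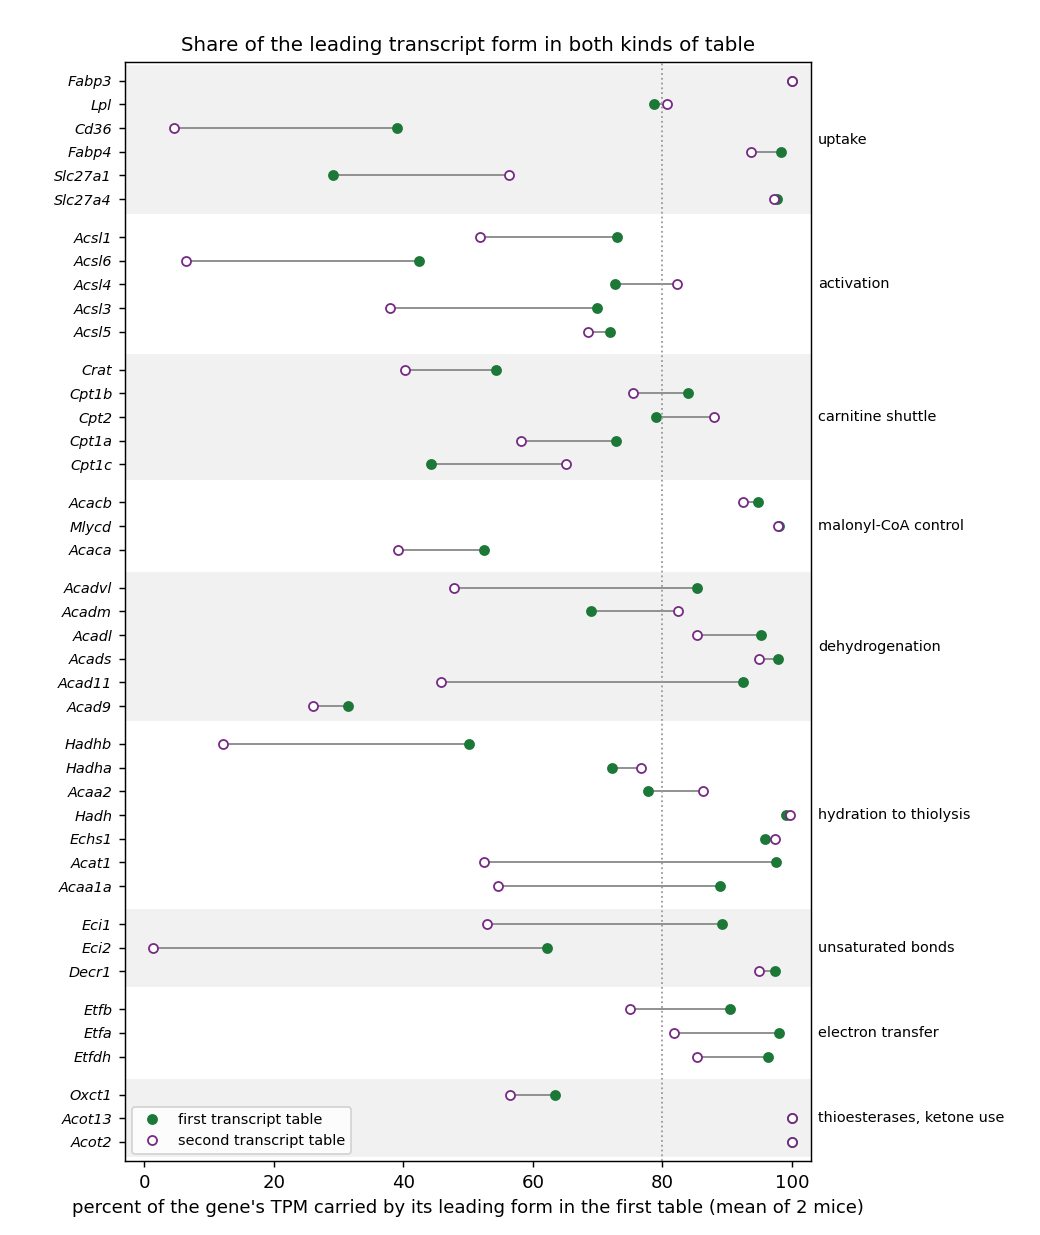
Percent of each gene's TPM carried by the form that led it in the first transcript table, as the mean over both animals, in the first table (filled) and the second (open), with a dotted line at 80%. Fabp3, Acot2 and Acot13 sit at 100% in both tables, and Cd36, Acsl6, Hadhb and Eci2 have open points far to the left of the filled ones.

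Hadha was led by an RNA that is not annotated as coding. The processed transcript Hadha-201 carried 73.5% of its TPM in replicate 1 and 70.9% in replicate 2 in the first table, and 78.2% and 75.2% in the second. The coding form Hadha-205 carried 17.7% and 20.0%. Both have 20 exons, 16 of them identical, and Hadha-201 ends 1122 bases before the 3′ end of Hadha-205. In Hadhb, the coding Hadhb-201 carried 48.6% and 51.7% in the first table, and Hadhb-203, with the same 1425 coding bases, 22.6% and 20.6%. In the second table Hadhb-201 had 8.70% and 15.7%, and Hadhb-203 32.8% and 12.7%. Hadhb-202, also with 1425 coding bases, had 8.93% and 16.8% there. Hadhb-208, a form of 507 bases with a retained intron, carried 28.2% and 26.7% in the first table but 48.8% and 54.2% in the second. All Hadhb forms not annotated as coding took 28.8% and 27.7% in the first table, and 49.2% and 54.8% in the second.

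Noncoding forms took a part of several other members, of a size that differed between the tables. In Oxct1 the coding Oxct1-201 carried 65.3% in replicate 1 and 61.6% in replicate 2, and the processed transcript Oxct1-203 took 20.4% and 22.0% in the first table but 42.8% and 44.0% in the second. Acat1-201 carried 100% and 95.2% of Acat1 in the first table, while the 500-base Acat1-203 took 0% and 4.15% there and 47.2% and 47.7% in the second. Acat1 was also the gene whose level differed most between the tables, by 0.53 on the log2 scale after rescaling over nuclear protein-coding genes. No member differed by more than 2-fold in that comparison. In Slc27a1 the coding Slc27a1-207 carried 30.0% and 28.4% and the retained-intron form Slc27a1-202 27.4% and 24.7% in the first table. The second table gave Slc27a1-207 58.7% and 54.0% and Slc27a1-202 18.5% and 11.03%. The coding Slc27a1-201, with the same 1938 coding bases as Slc27a1-207, carried 20.5% and 15.5% in the first table and 0% in the second. All noncoding forms of Slc27a1 together took 47.7% and 52.6% in the first table, and 41.3% and 46.0% in the second. Acad9 had no form above 35% in either table, with Acad9-201 at 32.5% and 30.5% in the first. In the second table its leading form was Acad9-208, with a retained intron. Forms of Acad9 not annotated as coding took 48.7% and 41.3% in the first table, and 63.0% and 59.8% in the second. Retained-intron forms took 16.0% and 13.0% of Acadvl in the first table, and 42.8% and 44.9% in the second. In Acadm such forms took 27.6% and 33.9% in the first table, but 3.90% and 4.08% in the second.

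The other members under 80% were divided between several forms, most of those named here coding. Cd36-203 carried 38.5% in replicate 1 and 39.5% in replicate 2 in the first table but 0.315% and 8.95% in the second, where Cd36-202 took 33.8% and 40.0%. Both forms hold the same number of coding bases, 1416, and they start 39018 bases apart. Crat-201 carried 54.5% and 54.2% and Crat-202 33.4% and 29.0%, which hold 1878 and 1815 coding bases. Lpl-201 carried 78.8% and 78.6%, and Lpl-203, annotated as a target of nonsense-mediated decay, took 20.1% and 20.3%. Eci2-211 carried 58.0% and 66.3% in the first table and 2.63% and 8.64e-05% in the second, which was led by the retained-intron form Eci2-205 at 25.6% and 27.6%. Acsl6-205 carried 36.5% and 48.4%, against 1.05% and 11.9% in the second table. The remaining 10 genes under 80% (Acsl1, Acsl3, Acsl4, Acsl5, Cpt1a, Cpt1c, Cpt2, Acadm, Acaa2 and Acaca) were led by the same coding form in both tables by the mean over the animals. Within an animal, Cpt1c was led by Cpt1c-201 (45.5%) in replicate 1 in the first table, and Acsl3 by Acsl3-203 (31.6%) in replicate 1 in the second. Their mean share over the animals in the first table ran from 44.2% in Cpt1c, where the animals had 10.9% and 77.6%, to 79.1% in Cpt2.

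RefSeq promoter windows of 300 bases, from 250 before to 50 after a start site (GRCm38.p6), were found for 32 of the members, 37 windows in all. The members Fabp4, Lpl, Cpt1b, Crat, Acad9, Acaa2, Acat1, Decr1 and Acot13 had no window. The windows were rich in G and C: their median GC content was 60.3%, against 52.7% over all 32851 windows, and they held a median of 15 CpG, against 7. The GC box GGGCGG, searched on both strands as were all motifs here, was in 67.6% of member windows and 35.7% of all windows. CCAAT was in 54.1% and 37.4%, and the TATA box TATAAA in 2.70% and 13.6%. The set of all windows was not matched to the members for expression level or GC content, so these contrasts cannot be told apart from either.

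The full letters of the nuclear receptor sites tied to fat oxidation were rare, in member windows as in all windows. The direct repeat bound by PPAR and RXR, read as 2 copies of AGGTCA with any 1 base between them, was in 0 of the 37 windows and in 0.0396% of all windows. At that rate a match in 37 windows would be unlikely for any genes, so the 0 says little about the members. The ERR element TNAAGGTCA was in 1 member window (2.70%), that of Acsl6, against 1.28% of all windows. The AGGTCA unit that both contain was in 8 member windows (21.6%), against 16.3% of all windows. The NRF1 element, read as GCGCA, any 1 base and GCGC, was in those of Etfb and Etfdh, 5.41% of the member windows, against 4.60% of all.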

How the data were processed

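For each of the 2 libraries there were 3 deposited tables, 1 of genes and 2 of transcripts. Transcriptome alignments (mm10, GENCODE M21) underlie the gene table and the transcript table called first here, per the file headers and notes. The transcript table called second was made directly from reads with an index. The aligner and quantifiers were not given in the sources used here. As units, the authors deposited expected counts (estimated reads, not whole), TPM over all listed features, and bounds of a credibility interval of TPM, a signal whose level is not stated. Nothing was pooled.

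Genes were matched by versioned identifier to GENCODE M21. Gene values of the second table are sums over a gene's transcripts. Ratios are log2((TPM + 0.1) of replicate 1 / (TPM + 0.1) of replicate 2), which understates ratios of low genes. Counts and medians of ratios cover genes with a mean expected count of at least 50. A count of 0 allows up to 3 reads, or 0.0812 CPM in replicate 1 and 0.0774 CPM in replicate 2, counting error only. TMM factors came from edgeR 4.0.16 in R 4.3.3, with no test. The rest was computed in Python 3.11.15 with pandas 2.3.3 and numpy 2.4.6. The ratio step was checked on simulated counts with counting noise only and planted 2-fold changes, at a smaller pseudocount. That check does not cover smaller differences, read assignment or the spread between animals. Near-identical copies were sought by aligning the longest coding form of each member to all M21 transcripts, at 200 or more bases and 90% identity.

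The members and gene lists were chosen with earlier results of these data known. All 41 members are named. Forms are named where the leading form carries under 80%, is not coding or differs between the tables. Of the other fatty acid genes and the regulators, the 5 highest, the 3 lowest and the 3 with the largest absolute ratio are named. Further genes were named after their values were seen. Alternatives were the second table, TPM rescaled over nuclear protein-coding genes, TMM, another pseudocount, filter or fold, and leaving out an animal.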

Additional observations from a re-analysis of the deposited data

How the results depend on the processing

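No paired analysis was possible because the series holds 1 group. The statement that most members were lower in replicate 1 held under every scaling tried: 32 of 40 in the second transcript table, 33 with TPM rescaled over nuclear protein-coding genes, 34 with a pseudocount of 1 and 36 with TMM. Of all genes, 33.3%, 39.6%, 50.5% and 52.1% were lower under these settings, against 50.5% as reported. The members' median was -0.23 in the second table. Step medians there were -0.30 for uptake, -0.26 for the shuttle, -0.30 for malonyl-CoA control, -0.23 for hydration to thiolysis (-0.27 after rescaling), -0.0779 for unsaturated bonds, -0.17 for electron transfer and -0.47 for thioesterases and ketone use. The last was -0.48 without members that have near-identical copies, an alternative chosen after seeing the data. The activation median, 0.03 as reported, turned to -0.0272 with TMM, to -0.00626 with the minimum mean count raised to 200, and to -0.00626 without members with copies.

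Sums of TPM depend on their denominator. In the second table and after rescaling they were 893 and 1391 TPM for uptake, 175 and 268 for activation, 360 and 589 for the shuttle, 111 and 190 for malonyl-CoA control, 573 and 880 for dehydrogenation, 760 and 1127 for hydration to thiolysis, 191 and 248 for unsaturated bonds, 336 and 524 for electron transfer, 288 and 433 for thioesterases and ketone use, and 3687 and 5651 for all members. Acadvl took 39.1% of its family in the second table.

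The number of members at least 1.5-fold lower in replicate 1 was 1 in the second table, 2 after rescaling, 2 with TMM (of all genes 270, 284 and 278), 2 without members with copies and 0 at 2-fold, with or without intervals apart. The number at least 1.5-fold higher was 2 in the second table (of all genes 1311). In the gene table it was 0 at 2-fold with or without intervals apart, and 0 without members with copies, which leaves out Acsl3. Over all genes, those lower numbered 170 with a pseudocount of 1, 2176 with no filter, 177 at a mean count of at least 200, 67 at 2-fold and 52 at 2-fold with intervals apart. Those higher numbered 442, 3174, 406, 262 and 205 under the same settings. Leaving out either animal gives the other animal's own values, printed with each result. Of 41 shares of the leading form, 33 moved in the second table by more than the spread between the animals. Low members (Cpt1c, Acsl5) and shares of forms are limited by depth and read assignment.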
